A study of Mus musculus with 106 samples.

Results

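Hox genes encode homeodomain transcription factors that give cells their position along the head-to-tail axis. In mouse they lie in 4 clusters, Hoxa, Hoxb, Hoxc and Hoxd, and members with the same number in different clusters are paralogues. All genes whose symbol is Hox followed by a to d and a number were taken, which gave 33 of the 18193 genes measured here, with 9 in Hoxa, 9 in Hoxb, 7 in Hoxc and 8 in Hoxd. By paralogue number, 10 were anterior (1 to 4), 9 central (5 to 8) and 14 posterior (9 to 13). Genes with no probe set of a single symbol were not analysed here.

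The study hybridised 106 arrays, each with material amplified from a single cell, and all embryos were C57BL/6. The wild-type germline series held 8 posterior epiblast cells at the pre-streak stage (PS), chosen as Oct4+ and T+, and precursors of primordial germ cells (PGCs), chosen as Blimp1+ and Oct4+, 7 of them Early/Mid-Streak (E/MS) and 17 Late-Streak/0-Bud (LS/0B). PGCs, chosen as Blimp1+ and stella+, numbered 8 at the Early/Mid-Bud (E/MB) stage, 8 at the early head fold (EHF) and 8 at embryonic day 8.25 (E8.25). The other wild-type groups were 10 posterior mesoderm cells at E/MB (Blimp1-, Oct4+, Hoxb1+) and Blimp1+ Hoxb1+ cells, 4 at E/MB and 4 that the description places at EHF and the title at E/MB. Blimp1 (-/-) cells, chosen by the transcript of the null allele and by Oct4, numbered 20 at LS/0B and 12 at E/MB. Blimp1 is the repressor encoded by Prdm1, which PGC formation requires. No label names an embryo, so a group counts as 1 sample, no test was made, and each SD describes cells.

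Hox clusters are activated in order during gastrulation, from the anterior end (low numbers) to the posterior end, in the posterior primitive streak and the mesoderm that leaves it. WNT and FGF signals, retinoic acid and the CDX homeodomain factors promote this activation, and Polycomb complexes hold the clusters silent before it. PGC precursors arise next to mesoderm that activates Hox genes, and low Hox expression is a textbook trait of early PGCs.

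Hoxb1 was itself used to choose posterior mesoderm and Blimp1+ Hoxb1+ cells, so its level there is a description of the choice. It was not used to choose epiblast, precursors, PGCs or Blimp1 (-/-) cells. The signal is a linear intensity, given here as log2 with low values raised to a floor of 6.13, and a gene counts as detected where its signal exceeded the 95th percentile of 126 background probe sets in that cell. That limit lay between 6.37 and 7.37, with a median of 6.91 in log2. A difference of means is called large here from 1 log2 unit, which states a size and no test.

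Several facts about the arrays touch what follows. The number of probe sets above the limit averaged between 11215 and 12960 per group. The hybridisation controls of the mesoderm arrays averaged 11.23 in log2, against 9.79 in the others, with no overlap (at least 10.77 against at most 10.75). Abca4 and Ppp2cb, chosen after their values were seen, divided the arrays largely along cell group. No label or header names a batch. Abca4 was detected in 17 of 17 LS/0B precursors, in all PGCs and in 6 of 10 mesoderm cells. Among Blimp1 (-/-) cells it was detected in 0 of 20 from LS/0B and 1 of 12 from E/MB, and in each Blimp1+ Hoxb1+ group in 0 of 4. Ppp2cb was detected in 1 of the 24 PGCs (EHF), in 19 of 20 and 11 of 12 Blimp1 (-/-) cells, in all Blimp1+ Hoxb1+ cells and in 8 of 10 mesoderm cells. A set of arrays and a cell group therefore cannot be told apart where PGCs or precursors are set against these other groups. The Prdm1 signal averaged 10.64 ± 0.42 (SD, n = 8) in E/MB PGCs, 7.96 ± 1.36 (n = 12) in E/MB and 7.41 ± 1.20 (n = 20) in LS/0B Blimp1 (-/-) cells. Whether its probe set lies in the deleted part is not given in the sources used here.

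The stretches upstream of Hoxb1, Hoxd1 and Hoxd9 are shown because these genes, 2 at the anterior end of their clusters and 1 posterior, had higher means in E/MB Blimp1 (-/-) cells than in PGCs by at least 1 log2 unit. Each holds the 250 bases before the RefSeq start (assembly GRCm38.p6), written 5′ to 3′ on the gene's strand, which is the plus strand for all of them. Hoxb1 is at chr11:96365508-96365757, Hoxd1 at chr2:74762730-74762979 and Hoxd9 at chr2:74697513-74697762. Capitals mark matches to 4 motifs searched on both strands: TTTATNG for CDX factors, TGATNNAT for PBX with HOX, AGGTCA for a retinoic acid receptor half-site, and GNGAAAG for BLIMP1.
Hoxb1: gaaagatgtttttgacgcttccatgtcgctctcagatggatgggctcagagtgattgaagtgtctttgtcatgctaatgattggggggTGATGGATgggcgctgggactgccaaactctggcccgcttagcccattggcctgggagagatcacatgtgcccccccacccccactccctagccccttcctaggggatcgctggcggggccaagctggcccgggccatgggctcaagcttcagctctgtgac
Hoxd1: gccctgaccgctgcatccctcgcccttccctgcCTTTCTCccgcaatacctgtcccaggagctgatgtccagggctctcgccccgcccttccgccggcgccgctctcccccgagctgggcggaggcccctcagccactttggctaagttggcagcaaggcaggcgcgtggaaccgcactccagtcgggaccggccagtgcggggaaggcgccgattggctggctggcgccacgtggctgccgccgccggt
Hoxd9: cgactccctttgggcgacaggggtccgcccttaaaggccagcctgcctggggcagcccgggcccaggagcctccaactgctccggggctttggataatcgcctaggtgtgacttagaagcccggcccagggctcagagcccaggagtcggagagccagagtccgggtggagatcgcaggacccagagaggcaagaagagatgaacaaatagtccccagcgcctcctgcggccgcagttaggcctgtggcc

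The Hoxb1 window holds 1 match, to the PBX with HOX motif 162 bases before the start. The Hoxd1 window holds 1 match to the BLIMP1 motif, on the reverse strand 217 bases before the start, and the Hoxd9 window holds none. The promoter table had windows for 22 of the Hox genes in the gene table. In these windows the CDX motif occurred in 2 genes, the PBX with HOX motif in 4, the retinoic acid receptor half-site in 6 and the BLIMP1 motif in 8. Of all 32851 windows of this length, 9.81%, 7.68%, 14% and 19.4% held the same motifs. These matches describe letters only and say nothing about binding.

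Of the 33 members, 11 were above the limit in 0 of 106 cells: Hoxa4, Hoxb4, Hoxb7, and, among the posterior members, Hoxa11, Hoxa13, Hoxb13, Hoxc9, Hoxc10, Hoxc13, Hoxd11 and Hoxd12. Of the measured paralogues 11 to 13, Hoxd13 alone was detected, in 12 cells, 3 of them epiblast (highest 8.10). A different Hoxd13 probe set was at the floor in every cell, so the probe sets for this gene disagree. The other end of the range was Hoxb3, with a probe set above the limit in 105 of 106 cells and group means between 7.50 and 8.52. A different Hoxb3 probe set was at the floor in every cell, so the 2 probe sets disagree. Hoxb5 and Hoxc6 were also above the limit in at least 50% of epiblast cells, at means of 7.14 ± 0.14 and 7.14 ± 0.32 (n = 8), with group means between 6.35 and 7.14 for Hoxb5 and between 6.61 and 7.77 for Hoxc6. Counts per cell are given over all 33 members and also without these 3, which leaves 30 that are low in epiblast by that choice. Whether the signal of Hoxb3, Hoxb5 and Hoxc6 is expression or probe background was not tested. The other Hoxc6 probe sets were at the floor in all epiblast cells. The widest ranges of group means were those of Hoxb1 (4.71), Hoxd9 (4.47), Hoxb2 (3.22), Hoxb6 (2.92), Hoxa10 (2.69), Hoxa9 (2.52) and Hoxd8 (2.50). In 15 members the range was at least 1 log2 unit.

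**Figure D1:**
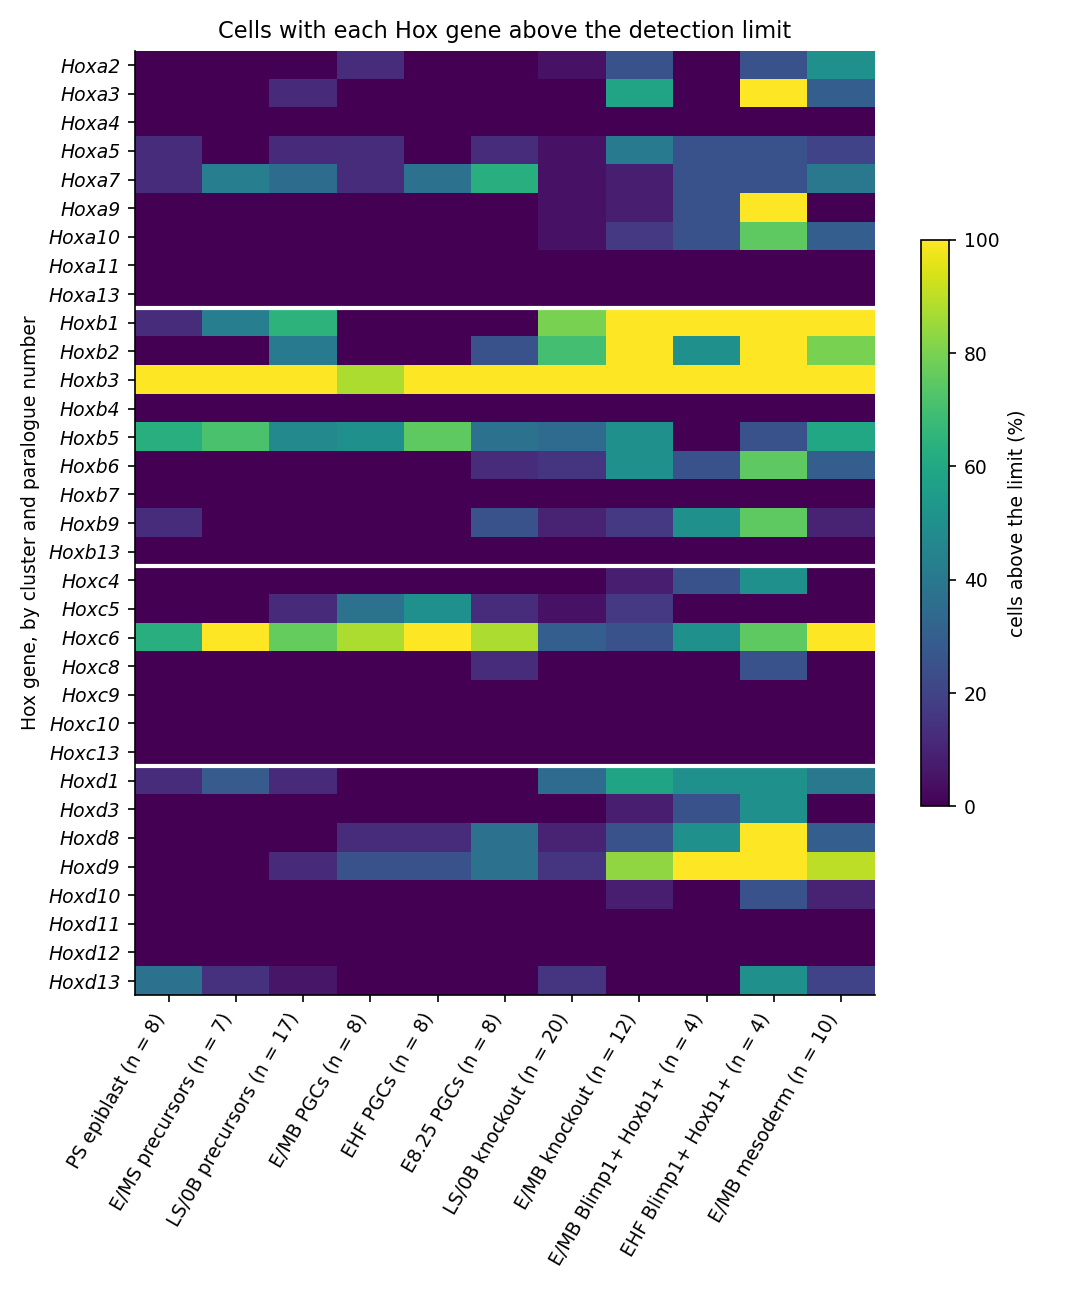
Share of cells (%) in which each of the 33 Hox genes (rows, by cluster and paralogue number) was above the detection limit in each of the 11 groups (columns, with the number of cells). The PGC columns are dark at Hoxb1 (0 of 24 cells), the E/MB Blimp1 (-/-) column is full at Hoxb1 and Hoxb2 (12 of 12 each), and the EHF Blimp1+ Hoxb1+ column has the most filled rows.

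Epiblast cells at the pre-streak stage had a mean of 3.25 ± 1.04 (SD, n = 8) of the 33 members above the limit, with at least 2 in each cell. Without Hoxb3, Hoxb5 and Hoxc6 the mean was 1 ± 0.76, a low value that leaving them out partly sets. Hoxb1, the first Hoxb gene to be switched on in the streak, was detected in 1 epiblast cell, at 7.84, and the other 7 were at the floor. At the E/MS stage 3 of 7 precursors had it, at 7.98, 7.32 and 8.68. No member differed by 1 log2 unit or more between E/MS precursors and epiblast, where 5.6% of all genes did.

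Hoxb1 and Hoxb2 had higher means in LS/0B than in E/MS precursors. Hoxb1 was detected in 11 of 17 cells, with a lowest value of 6.13, a median of 8.91 and a highest of 10.86, and Hoxb2, its neighbour and a hindbrain and mesoderm gene in later embryos, in 7 of 17 cells (median 6.13, highest 9.66). The Hoxb1 mean was 8.44 ± 1.87 (n = 17), higher than in E/MS precursors by 1.51, and Hoxb2 7.26 ± 1.47 (n = 17), higher by 1.13. They were 2 of 33 members past 1 log2 unit, with 1.48% of all genes past it in that direction. The cells of the 2 stages overlap for both genes. Without replicate 4 or replicate 7 of LS/0B the Hoxb2 difference was 0.98 or 0.99, and only Hoxb1 remained. A higher floor, at the 99th percentile of background, left 0 members.

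Hoxb1 was not spread evenly over LS/0B precursors. The 6 cells without it all had Prdm14 and Sox2, regulators of PGCs and pluripotency, and 5 of them had Dppa3 (stella). Of the 11 with it, 5 had Prdm14, 1 had Sox2 and 3 had Dppa3. Hoxb1 and Hoxb2 were detected together in 6 cells, Hoxb1 alone in 5, Hoxb2 alone in 1 and neither in 5. The split moved with Xist, the X-inactivation RNA: Hoxb1 was detected in 2 of 8 cells with Xist and in 9 of 9 without. Ppp2cb was detected in 6 of the 17. The part of these in the result was not tested. Without the cells with Xist, the Hoxb1 difference from E/MS precursors was 2.68 and that of Hoxb2 1.43.

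Hoxb1 was detected in 0 of 8 PGCs at each of the 3 stages, and so was Hoxd1, while Hoxb3 was above the limit in 23 of the 24. A count of 0 of 8 allows a share of up to 36.9% of cells with a signal above the limit (exact 95% interval, counting error only), and does not bound the share of cells that express the gene. Hoxb2 was detected in 0 of 8 PGCs at E/MB, 0 of 8 at EHF and 2 of 8 at E8.25, at 7.62 and 6.98. Against LS/0B precursors, the differences in E/MB PGCs were -2.31 for Hoxb1 and -1.13 for Hoxb2, and these were 2 of 33 members past 1 log2 unit, where 2.66% of all genes were lower by that much. All 8 PGCs stood at the floor, a level that 6 of 17 precursors shared for Hoxb1 and 10 of 17 for Hoxb2. Against the detection limits of the PGCs, Hoxb1 was at least 1.31-fold higher in the precursors. The Hoxb2 difference was again -0.98 or -0.99 without LS/0B replicate 4 or 7. Without cells with Xist the Hoxb1 difference was -3.47, and with the higher floor 0 members passed. PGCs were chosen by stella and precursors were not, so stage and choice of cells cannot be told apart.

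**Figure D2:**
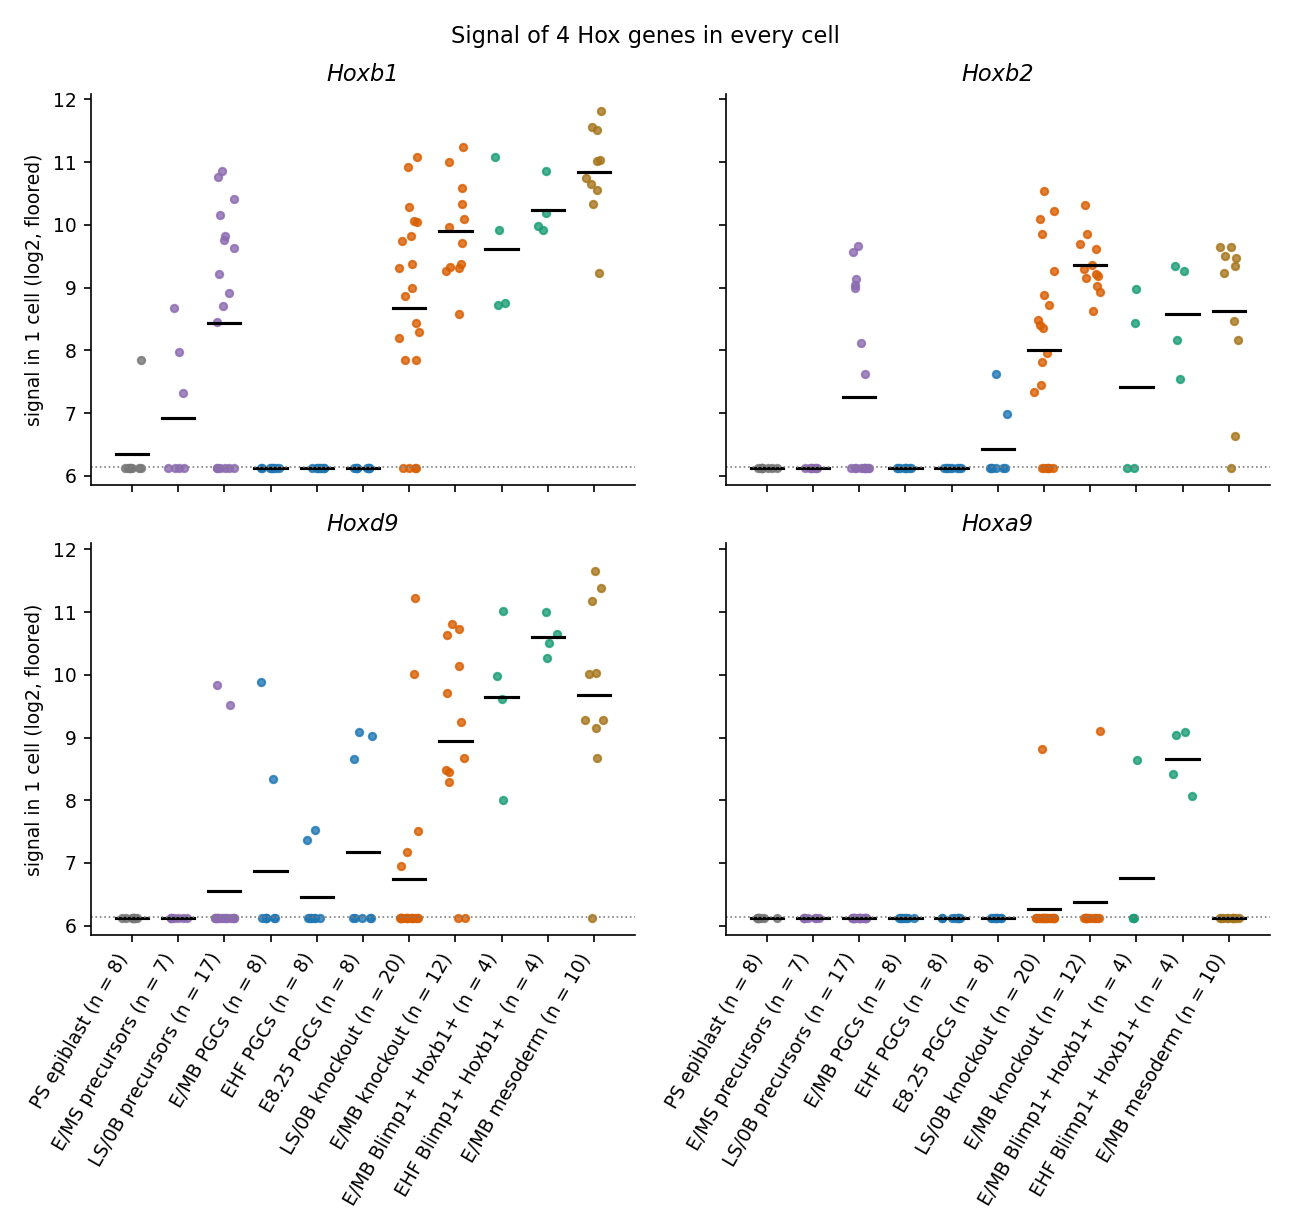
Signal (log2, floored) of Hoxb1, Hoxb2, Hoxd9 and Hoxa9 in every cell (points), with the group mean (black line) and the floor (dotted line at 6.13). All 24 PGCs lie at the floor for Hoxb1, and Hoxa9 is above it in 4 of 4 EHF Blimp1+ Hoxb1+ cells and in 1 cell each of 3 other groups.

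Other members were detected in some PGCs. Hoxd9, a posterior member that marks tail and limb levels later, was detected in 7 of 24 PGCs, at 8.34 and 9.89 at E/MB, 7.37 and 7.52 at EHF, and 8.66, 9.03 and 9.08 at E8.25. The other 17 PGCs were at the floor. Hoxd9 was the 1 of 33 members higher in E8.25 PGCs than in epiblast by 1 log2 unit or more (7.18 ± 1.45 against 6.13 in all epiblast cells, a difference of 1.05), where 4.9% of all genes were. Without E8.25 replicate 3, 6 or 8 it was 0.77, 0.83 or 0.78, so the call rests on each of these cells. The higher floor left 0 members. Hoxd8, its neighbour, was detected in 5 of 24 PGCs. Hoxa2, Hoxb6 and Hoxc8 were each detected in 1, and Hoxb9 in 2. From E/MB to EHF PGCs 0 of 33 members differed by 1 log2 unit (4.17% of all genes did), and from EHF to E8.25 again 0 (3.25% did).

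Several members were detected in the same few PGCs. Replicate 4 of E8.25 had 6 of the 30 genes, namely Hoxa7, Hoxb2, Hoxb6, Hoxb9, Hoxc8 and Hoxd8, and replicate 8 had Hoxa5, Hoxb2, Hoxd8 and Hoxd9. At E/MB, replicate 8 had Hoxa5, Hoxc5, Hoxd8 and Hoxd9. Over all 33 members the mean per cell was 3.38 ± 1.19 at E/MB, 4 ± 0.93 at EHF and 4.63 ± 2.13 at E8.25 (n = 8 each). Over the 30 it was 1.13 ± 1.46, 1.25 ± 0.71 and 2.38 ± 1.77. Hoxc5 was above the limit in 8 of 24 PGCs at values near it, with means of 6.85 ± 0.36 at E/MB and 6.87 ± 0.60 at EHF. The other Hoxc5 probe sets were above the limit in no PGC.

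**Figure D3:**
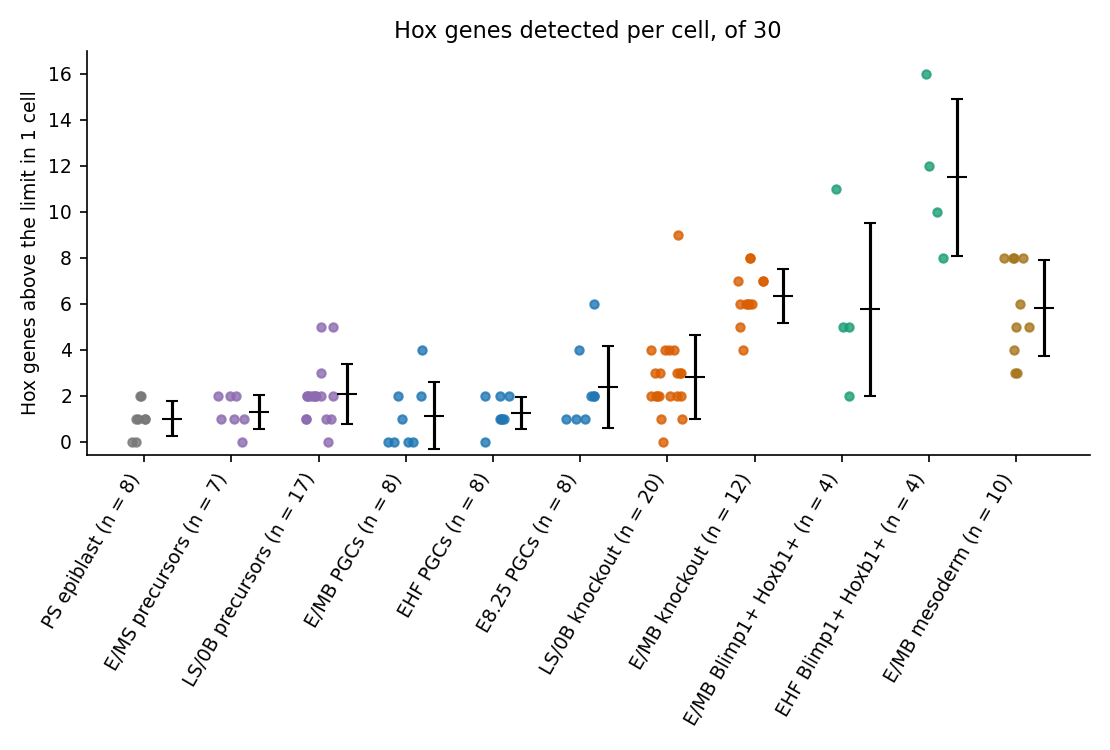
Number of Hox genes above the limit in each cell (points), of the 30 that were below it in more than 50% of epiblast cells, with mean and SD over cells beside them. The choice of the 30 lowers epiblast by construction: epiblast, precursors and PGCs average between 1 and 2.38, E/MB Blimp1 (-/-) cells 6.33 and EHF Blimp1+ Hoxb1+ cells 11.5, against 3.25 to 4.63, 8.08 and 13.5 over all 33.

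At LS/0B no Hox gene differed by the stated size between Blimp1 (-/-) cells and wild-type precursors. In Blimp1 (-/-) cells Hoxb1 averaged 8.68 ± 1.59 (n = 20) and Hoxb2 8.01 ± 1.53 (n = 20), detected in 16 and 14 of 20 cells, and the lowest, median and highest Hoxb1 values were 6.13, 8.93 and 11.08. These overlap the precursors throughout. Of 33 members, 0 differed by 1 log2 unit or more from wild-type precursors, where 1.45% of all genes did. Xist was detected in 8 of 17 precursors and in 0 of 20 Blimp1 (-/-) cells. Among cells without Xist, Hoxb1 was detected in 9 of 9 precursors and 16 of 20 Blimp1 (-/-) cells. The part of Xist in this comparison was not tested. Hoxb1 and Hoxb2 were detected together in 13 of these cells. Dppa3 was detected in 0 of the 20, against 8 of 17 precursors. Hoxd1, the Hoxd paralogue of Hoxb1, was detected in 7 of 20 cells against 2 of 17 precursors. Replicate 19 stood apart with 9 of the 30 genes, among them Hoxa9 at 8.82, Hoxb6 at 9.12 and Hoxd9 at 11.23, while its Hoxb2 was at the floor.

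At E/MB, 4 anterior members (Hoxa3, Hoxb1, Hoxb2 and Hoxd1), the central Hoxb6 and the posterior Hoxd9 had higher means in Blimp1 (-/-) cells than in PGCs by at least 1 log2 unit. Hoxb1 was detected in 12 of 12 cells (lowest 8.58, median 9.84, highest 11.24) and Hoxb2 in 12 of 12 (8.63, 9.25 and 10.31), against 0 of 8 PGCs for both. No Blimp1 (-/-) cell overlapped a PGC for these genes. Hoxb1 averaged 9.90 ± 0.79 and Hoxb2 9.36 ± 0.45 (n = 12), differences of 3.76 and 3.22, or at least 8.24-fold and 5.66-fold higher against the detection limits of the PGCs. Hoxd9 was higher by 2.07, in 10 of 12 cells against 2 of 8. Hoxd1 was higher by 1.83 (7 of 12 cells against 0 of 8), Hoxa3 by 1.43 (7 of 12 against 0 of 8) and Hoxb6 by 1.36 (6 of 12 against 0 of 8). For these 4 genes the cells of the groups overlap. Hoxa3 patterns the pharyngeal region and Hoxb6 the trunk in later embryos. In all 6 of 33 members were higher by 1 log2 unit or more and 0 lower, where 4% of all genes were higher. The higher floor left 2. The median difference over the 33 was 0.09, against 0 over all genes.

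Markers of other cells moved with these Hox genes. Of 9 germ cell markers measured, 8 were lower in E/MB Blimp1 (-/-) cells than in PGCs by at least 1 log2 unit (3.61% of all genes were), and their mean signal per cell ranged from 6.94 to 9.35 against 10.84 to 11.38. Of 9 mesoderm markers, 6 were higher (4% of all genes were), with a range of 7.19 to 9.25 against 6.47 to 7.65. Of the 9, 2 were detected in 0 of 12 cells. Of 8 blood and endothelium markers and 5 neural markers 0 differed. Sox17 (of 7 endoderm markers) was lower, Plac1 (of 4 trophoblast markers) higher, and of 6 epiblast markers Dnmt3b was higher and Nodal lower. Dppa3 and Prdm1 were among the germ cell markers and had been used to choose cells. The part of these in the Hox difference was not tested.

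The 12 Blimp1 (-/-) cells did not share 1 Hox profile. Hoxa3 was detected in replicates 3, 4, 6, 7, 8, 9 and 12, at 9.71, 9.28, 8.57, 9.19, 7.88, 7.56 and 7.91. Hoxb6 was detected in replicates 1, 2, 5, 8, 10 and 11, at 9.34, 7.83, 7.96, 9.03, 8.89 and 10.05. Only replicate 8 had both. All 6 cells with Hoxb6 also had Hoxd9, and 4 cells had Hoxd9 alone. Hoxd1 was at 10.06, 10.37 and 10.36 in replicates 1, 10 and 11, and at the floor in replicates 3, 7, 8 and 9. Hoxa2 was detected in 3 cells and Hoxa9 in 1.

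Between LS/0B and E/MB, Hoxb1 and Hoxb2 were higher at the later stage in Blimp1 (-/-) cells, while the wild-type differences above were negative. Wild-type E/MB cells were chosen by stella, and the LS/0B precursors and Blimp1 (-/-) cells were not. Stage and choice of cells therefore cannot be told apart in the wild-type differences. In Blimp1 (-/-) cells 6 genes were higher at E/MB by at least 1 log2 unit: Hoxd9 by 2.21, Hoxa3 by 1.40, Hoxb2 by 1.35, Hoxb1 by 1.22, Hoxd1 by 1.09 and Hoxb6 by 1.08. They were 6 of 33 members, and 0.544% of all genes were higher by that much. The higher floor left 0 members, and a size of 2 log2 units left 1. Abca4 and Ppp2cb did not separate these groups, but they were chosen after their values were seen. They cannot show whether the arrays of the stages differ in batch, and no label gives a batch. No LS/0B cell of the 20 had Hoxa3, against 7 of 12 at E/MB. The single-cell ranges overlap for all 6. Hoxb6 was below 1, between 0.85 and 0.95, without E/MB replicate 1, 8, 10 or 11, and Hoxd1, between 0.87 and 0.99, without replicate 1, 5, 10 or 11.

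**Figure D4:**
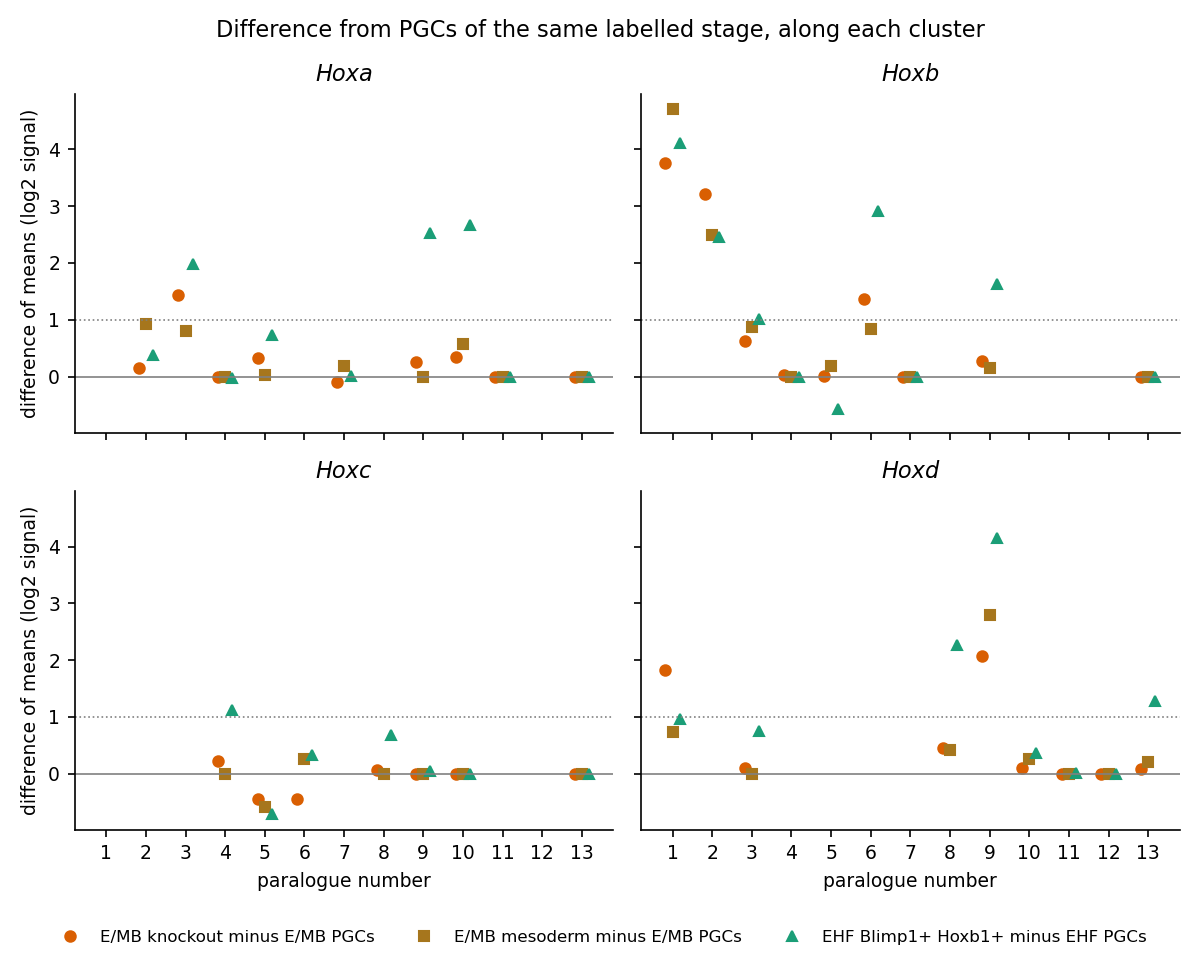
Difference of group means (log2 signal) from PGCs of the same labelled stage for each measured Hox gene, by paralogue number, in the 4 clusters; the dotted line marks 1 log2 unit. E/MB Blimp1 (-/-) cells (circles) reach 3.76 at Hoxb1 and 2.07 at Hoxd9; squares are mesoderm, and EHF Blimp1+ Hoxb1+ cells (triangles) stand highest at Hoxd9, with a mean of 10.61 against 6.46 in EHF PGCs.

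Posterior mesoderm cells, the somatic neighbours, had several of these genes. Beyond Hoxb1, by which they were chosen (10.85 ± 0.74, n = 10), they had Hoxd9 at 9.68 ± 1.61 in 9 of 10 cells and Hoxb2 at 8.62 ± 1.29 in 8 of 10. Against E/MB PGCs, 3 of 33 members were lower in PGCs by 1 log2 unit or more, namely Hoxb1 (-4.71), Hoxd9 (-2.80) and Hoxb2 (-2.49), where 3.62% of all genes were lower. Hoxb2 was at least 2.87-fold higher in mesoderm. Without Hoxb1, which chose the mesoderm cells, the count was 2. Against epiblast, 4 of 33 were higher in mesoderm, Hoxb1 by 4.50, Hoxd9 by 3.55, Hoxb2 by 2.49 and Hoxa2 by 1.22, where 2.87% of all genes were, and Hoxa2 stood at 0.94 without mesoderm replicate 7. The higher floor left 2. Hoxa2, a hindbrain and neural crest gene later, was detected in 5 of 10 mesoderm cells. Mesoderm arrays are those with the brighter hybridisation controls, and the part of this in these differences was not tested.

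Few members differed between E/MB Blimp1 (-/-) cells and mesoderm. Of 33 members only Hoxd1 was higher in Blimp1 (-/-) cells by 1 log2 unit or more (7.97 ± 1.78 against 6.87 ± 0.95, a difference of 1.09), where 6.89% of all genes were. Without Blimp1 (-/-) replicate 1, 5, 10 or 11 that difference was under 1 and as low as 0.87, and leaving out single cells gave between 0 and 2 members. Against E/MB Blimp1+ Hoxb1+ cells, 2 of 33 were higher, Hoxb2 by 1.94 and Hoxa3 by 1.43, where 2.28% of all genes were, and without Blimp1+ Hoxb1+ replicate 2 or 3 there were 4 members. The higher floor left 0 members in either comparison.

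Blimp1+ Hoxb1+ cells at E/MB were few and unlike each other. Hoxb1 was at 9.92, 8.73, 8.75 and 11.08 in the 4 cells and Hoxd9 at 9.98, 11.02, 8.0 and 9.61, while Hoxb2 was at 8.43 and 8.98 in replicates 2 and 4 and at the floor in the others. Replicate 2 had 11 of the 30 genes, with Hoxa9 at 8.64, Hoxa10 at 9.85 and Hoxb6 at 9.92, and replicate 3 had 2. Against E/MB PGCs, 4 of 33 members were lower in PGCs: Hoxb1 (-3.49), Hoxd9 (-2.77), Hoxb2 (-1.29) and Hoxa10 (-1.06), where 5.52% of all genes were. The Hoxa10 value was -0.17 without replicate 2, and the Hoxb2 value -0.95 without replicate 2 and -0.77 without replicate 4. The count was 2 without replicate 2, 7 without replicate 3 and 2 with the higher floor. Against mesoderm, 3 of 33 were lower in Blimp1+ Hoxb1+ cells, Hoxa2 (-1.22), Hoxb1 (-1.22) and Hoxb2 (-1.21), where 2.94% of all genes were, and 1 was without replicate 3 or with the higher floor. Hoxb1 was then -0.93 and Hoxb2 -0.78, and Hoxb1 was -0.93 without replicate 2, Hoxb2 -0.78 without replicate 1 and Hoxa2 -0.94 without mesoderm replicate 7.

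Blimp1+ Hoxb1+ cells labelled EHF had the highest mean number of Hox genes per cell of the 11 groups, and both anterior and posterior members were detected. Hoxa9 was at 8.07, 9.04, 9.09 and 8.42 in the 4 cells, Hoxa10 at 8.70, 6.63, 10.07 and 9.88, and Hoxd9 at 11, 10.51, 10.65 and 10.27. Hoxa9 and Hoxa10 pattern the posterior trunk and limbs later. Hoxa3 was detected in 4 of 4 cells, at 8.33, 7.68, 7.87 and 8.56, and Hoxb6 in 3, at 9.76, 10.54 and 9.77. Replicate 3 had 16 of the 30 genes, from Hoxa3 to Hoxd13, and replicate 1 had 8.

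Against EHF PGCs, 12 of 33 members were lower in PGCs by 1 log2 unit or more and 0 higher, where 5.54% of all genes were lower. The differences were -4.15 for Hoxd9, -4.10 for Hoxb1, -2.92 for Hoxb6, -2.67 for Hoxa10, -2.52 for Hoxa9, -2.45 for Hoxb2, -2.26 for Hoxd8 and -1.98 for Hoxa3. Those of Hoxb9 (-1.62), Hoxd13 (-1.28), Hoxc4 (-1.11) and Hoxb3 (-1.01) were smaller. Cells of the groups did not overlap for Hoxa3, Hoxa9, Hoxa10, Hoxb1, Hoxb2, Hoxb3, Hoxb9 and Hoxd9. Hoxa10 and Hoxb9 were above the limit in only 3 of the 4 Blimp1+ Hoxb1+ cells, so these separations include values under the limit. The share of all genes without overlap is not given, here or for the other comparisons. Relative to the detection limits of the PGCs, Hoxa9 was at least 3.44-fold and Hoxa10 at least 3.85-fold higher. Leaving out 1 Blimp1+ Hoxb1+ cell took 4 differences under 1: Hoxb9 was -0.96 without replicate 4, Hoxd13 -0.69 without replicate 3, Hoxc4 -0.42 without replicate 2, and Hoxb3 -0.96 and -0.92 without replicates 2 and 3. Hoxb3 was also -0.99 and -0.94 without PGC replicates 1 and 3. The median difference over the 33 members was -0.39, against 0 over all genes. Without Hoxb1, by which one group was chosen, 11 members were lower, and with the higher floor 4 of the 33 were. Of 9 mesoderm markers 6 were lower in EHF PGCs (5.54% of all genes were), and of 9 germ cell markers 7 were higher (6.94% were). The part of these markers was not tested.

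Within the Blimp1+ Hoxb1+ cells, 8 of 33 members were higher at EHF than at E/MB by 1 log2 unit or more, where 2.82% of all genes were. They were Hoxa3 (1.98), Hoxb6 (1.97), Hoxa9 (1.89), Hoxa10 (1.63), Hoxd13 (1.28), Hoxd8 (1.26), Hoxb9 (1.17) and Hoxb2 (1.16). Only for Hoxa3 did the cells not overlap. Without 1 cell, Hoxb9 was 0.52 (EHF replicate 4), Hoxd13 0.69 (EHF replicate 3), Hoxd8 between 0.83 and 0.84 (EHF replicate 4 or E/MB replicate 3 or 4) and Hoxb2 between 0.73 and 0.94 (EHF replicate 1 or 3 or E/MB replicate 1 or 3). Hoxa10 was 2.51 without E/MB replicate 2, and Hoxb2 was 0.48 without cells with Xist. The higher floor left 0 members, and averaging all probe sets left 4. Abca4 and Ppp2cb did not separate these groups, which cannot show whether their arrays differ in batch. The stage of the EHF cells rests on their description alone.

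Probe sets outside the main choice carried related signals. One that the annotation assigns to both Hoxb8 and Hoxb7 averaged 9.5 ± 1.2 (n = 4) in EHF Blimp1+ Hoxb1+ cells, 7.84 ± 1.37 (n = 12) in E/MB Blimp1 (-/-) cells, in 8 of 12, and 7.2 ± 1.55 (n = 8) in E8.25 PGCs, in 3 of 8. The probe set named Hoxb7 alone was detected in 0 cells. The Hoxa5 probe set that was not used averaged 7.67 in EHF Blimp1+ Hoxb1+ cells (2 of 4) and 7.19 in E/MB ones (2 of 4). It was at the floor in all E/MB and EHF PGCs. A Hoxc6 probe set that was not used averaged 9.26 in EHF Blimp1+ Hoxb1+ cells and 6.13 in EHF PGCs. The Hoxc6 probe set that was used averaged 7.77 ± 1.08 and 7.44 in the same groups. For Hoxd3os1, an antisense RNA of the Hoxd cluster, 1 probe set was detected in 5 of 12 E/MB Blimp1 (-/-) cells and in 0 of the 24 PGCs. Hoxb5os was detected in 3 of 4 EHF Blimp1+ Hoxb1+ cells and in 2 of 8 E8.25 PGCs. Whether a probe set reads the gene or its antisense partner depends on its strand, which the files do not give.

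Cdx2, a direct activator of Hox genes, was at the floor in 8 of 8 epiblast cells and averaged 9.0 ± 1.8 (n = 17) in LS/0B precursors, 10.14 ± 0.62 (n = 8) in E/MB PGCs and 10.36 ± 0.45 (n = 12) in E/MB Blimp1 (-/-) cells. PGCs had Cdx2 in 8 of 8 cells at each stage and Hoxb1 in 0. Cdx4, of the same family, averaged 6.29 ± 0.44 in E/MB, 6.47 ± 0.97 in EHF and 6.15 ± 0.05 in E8.25 PGCs (n = 8 each), 7.53 ± 1.55 (n = 12) in E/MB Blimp1 (-/-) cells, 7.78 ± 1.62 (n = 10) in mesoderm and 9.16 ± 0.89 (n = 4) in EHF Blimp1+ Hoxb1+ cells. Cdx1 was 6.46 ± 0.46 in E/MB and 8.71 ± 1.09 in EHF PGCs (n = 8 each). Of the 3 factors, 2 (Cdx1 and Cdx4) were higher in E/MB Blimp1 (-/-) cells than in PGCs by 1 log2 unit, where 4% of all genes were. All 3 were higher than in LS/0B Blimp1 (-/-) cells, where 0.544% of all genes were.

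Of 13 retinoid genes measured, 5 were lower in EHF PGCs than in EHF Blimp1+ Hoxb1+ cells (Rdh10, Cyp26a1, Rarg, Crabp1 and Crabp2), where 5.54% of all genes were, and 0 higher. Crabp1, a carrier of retinoic acid, averaged 11.5 ± 0.34 (n = 4) there and 8.11 ± 2.12 (n = 8) in PGCs. Cyp26a1, which breaks retinoic acid down, was at the floor in all PGCs at E/MB and EHF, and averaged 8.45 ± 2.46 (n = 7) in E/MS precursors and 8.18 ± 2.08 (n = 20) in LS/0B Blimp1 (-/-) cells. In E/MB Blimp1 (-/-) cells against PGCs, Crabp1 and Crabp2 were higher, 2 of 13, where 4% of all genes were, with 0 lower.

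**Figure D5:**
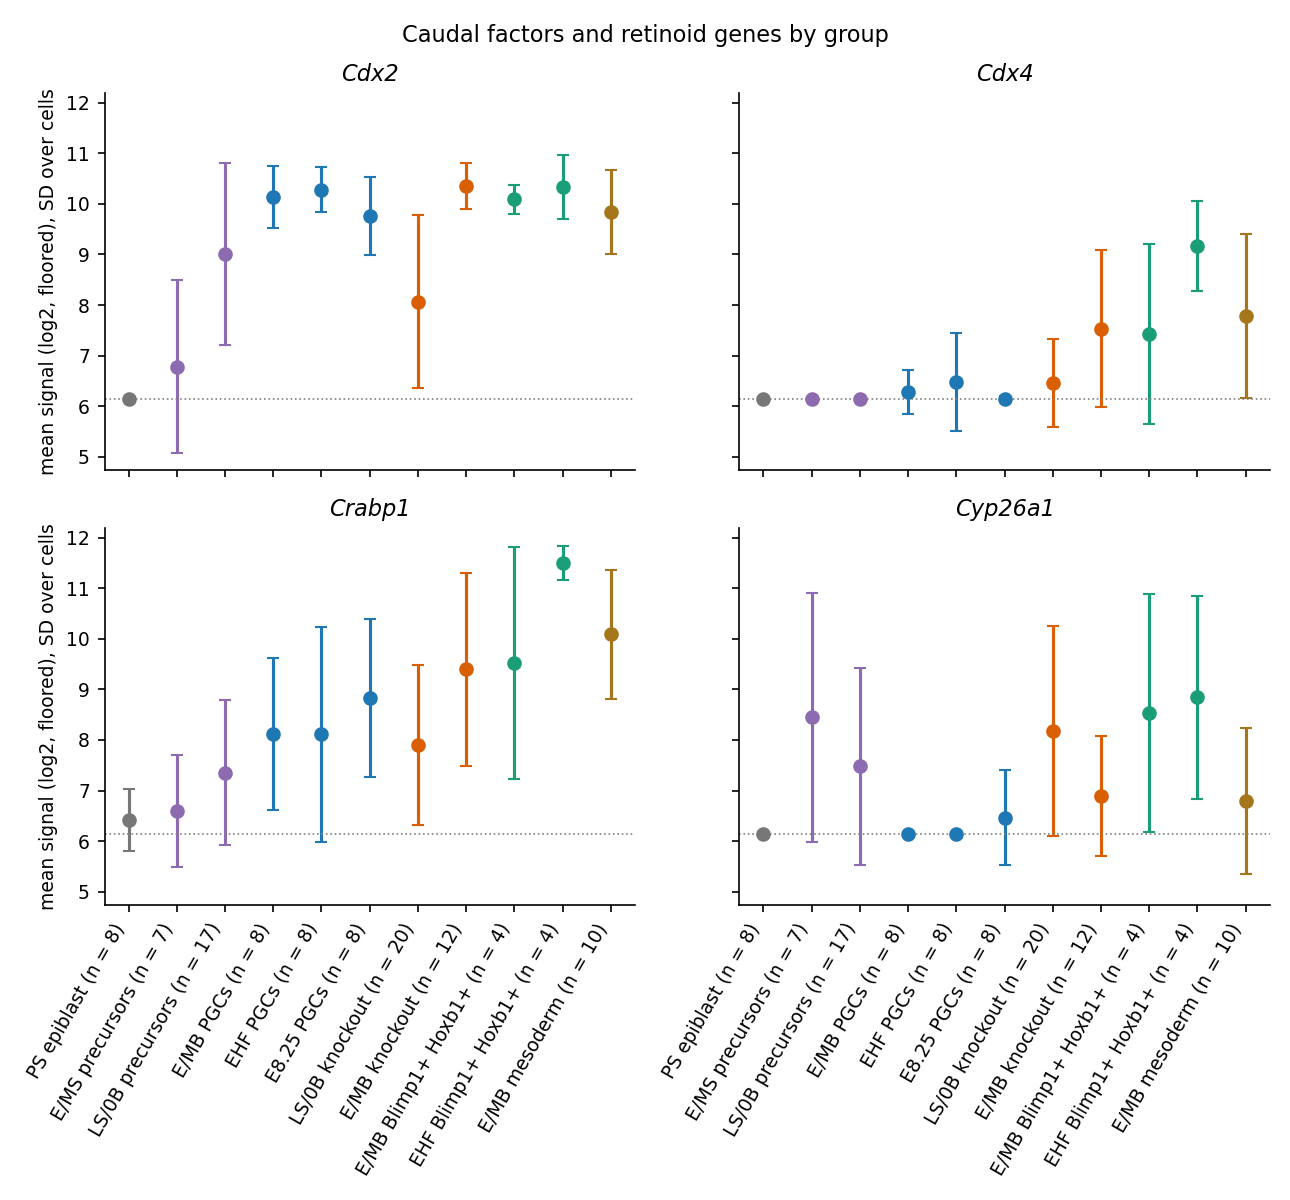
Mean signal (log2, floored) with SD over cells for Cdx2, Cdx4, Crabp1 and Cyp26a1 in each group; the dotted line is the floor, below which no value lies. Cdx2 is as high in E/MB PGCs (10.14) as in E/MB Blimp1 (-/-) cells (10.36), while Cdx4 is at 6.29 and 7.53 and Cyp26a1 stays at the floor in E/MB and EHF PGCs.

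For the lists that follow, 4% of all genes were higher and 3.61% lower in E/MB Blimp1 (-/-) cells than in PGCs. In EHF PGCs 5.54% were lower than in EHF Blimp1+ Hoxb1+ cells. The lists are short, and counts of few members are not read as results about a list. Of 8 cofactors that bind DNA with HOX proteins, Pknox2 alone was higher in E/MB Blimp1 (-/-) cells than in PGCs (8.36 ± 1.74, n = 12, against 6.41 ± 0.77, n = 8), and Meis2, Pbx2 and Pknox2 were lower in EHF PGCs than in EHF Blimp1+ Hoxb1+ cells. Of 9 posterior signals and their targets, Wnt3a and Nkx1-2 were higher in E/MB Blimp1 (-/-) cells than in PGCs and Fgf8 was lower. Of 14 Polycomb genes, Cbx7 and Phc1 were lower in these cells and Bmi1 higher. Cbx7 averaged 9.22 ± 0.95 (n = 8) in E/MB PGCs, 7.32 ± 1.23 (n = 12) in E/MB Blimp1 (-/-) cells and 6.34 ± 0.46 (n = 10) in mesoderm, and it was 9.68 ± 0.59 (n = 8) in epiblast. Ezh2, the H3K27 methyltransferase of Polycomb, was between 10.14 and 11.18 in every group. Of 9 trithorax and demethylase genes, Rbbp5 and Kdm6b were higher in E/MB Blimp1 (-/-) cells and 0 lower.

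The genes next to the clusters were also compared. The nearest 3 protein-coding genes on each side of the 4 clusters in the gene table gave 22 measured. In E/MB Blimp1 (-/-) cells against PGCs, 1 of 22 was higher (Cbx1) and 2 lower (Hibadh and Tax1bp1), where 7.61% of all genes differed either way. In EHF PGCs against EHF Blimp1+ Hoxb1+ cells 2 were higher (Hibadh and Smug1) and 2 lower (Skap2 and Evx1), where 12.5% of all genes differed. From LS/0B to E/MB in Blimp1 (-/-) cells 0 of 22 differed, and 1.22% of all genes did. Evx1, a homeobox gene beside the Hoxa cluster, averaged 8.58 ± 1.90 (n = 8) in epiblast, 10.69 ± 0.43 (n = 7) in E/MS precursors and 10.27 ± 0.85 (n = 8) in E/MB PGCs. By the probe sets used, Hoxa genes in E/MS precursors were at the floor save Hoxa5 and Hoxa7. Hoxa5 averaged 6.35 (0 of 7 cells above the limit) and Hoxa7 6.76 (3 of 7). Evx2, beside the Hoxd cluster, was at the floor save in mesoderm, where it averaged 6.14.

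The genes, other than Hox members, most like 3 Hox members were found by Pearson correlation of the 11 group means, as a description over groups that Abca4 and Ppp2cb also divide. For Hoxd9 they were Cmpk2 (0.96, although its own means span only 0.61), the antisense RNA Hoxa11os (0.96) and Gm15050 (0.95). For Hoxb2 they were Anapc16, Erbb2 and Htra1 (0.93 each), and for Hoxb6 S1pr3 (0.98), Cdx4 (0.96) and Cadps (0.96). Cdx4 is the only caudal factor among them.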

How the data were processed

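Single cells were picked at random from dissected fragments, their cDNA was amplified by PCR and cRNA was hybridised, per the labels' protocols. The deposited values are linear array intensity (signal), 1 per probe set and cell. The submitters' processing notes name MAS5. The scaling target is not given in the sources used here. Of 45101 probe sets, 34945 had 1 symbol in the platform annotation, and for 18193 genes the probe set with the highest mean floored log2 signal was used. Of the 33 Hox genes, 11 had several. Background was read from 126 probe sets of chemoreceptor (olfactory, vomeronasal, taste) and keratin-associated genes: their 90th percentile in each cell, as a median over cells, set the floor (70.2 in signal). Detection used the 95th percentile in each cell. "At least" folds set the brighter group's mean against, in the dimmer group, the mean of the higher of detection limit and value. The number of arrays limits precision. The members and gene lists were chosen with earlier results of these data known. Named were all members, the listed genes, the cluster neighbours and, for the 3 members other than Hoxb1 with the widest range, the 3 genes most correlated. Alternatives covered floor, probe set, scaling, limit, size and cells left out. Recovery of planted differences was tested on simulated data, only in probe sets with means far above the floor. No Hox gene had so high a mean over all cells, so this says nothing about differences near the floor. Promoters came from RefSeq (GRCm38.p6). Analysis used Python 3.11.15, pandas 2.3.3, numpy 2.4.6 and scipy 1.17.1.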

Additional observations from a re-analysis of the deposited data

Results flagged for a closer look

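For Hoxb2 the difference between E/MB and LS/0B was -1.13 in wild-type cells (PGCs minus precursors) and 1.35 in Blimp1 (-/-) cells. The signs were opposite, and the difference between them was not tested. The cells of each pair of stages overlap. The E/MB PGCs were chosen by stella and the other groups were not, so stage and choice cannot be told apart in wild-type cells.

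The others are signals from probe sets that the comparisons did not use. In EHF Blimp1+ Hoxb1+ cells a further Hoxc6 probe set averaged 9.26, a further Hoxd8 probe set 8.02 (7.32 in E/MB Blimp1+ Hoxb1+ cells), Hoxb5os 7.95 and Hoxa11os 7.39. The probe set assigned to both Hoxb8 and Hoxb7 averaged 9.5 in the same cells and 7.84 in E/MB Blimp1 (-/-) cells. All are log2 means over a floor of 6.13. Of 38 sets of 4 to 10 cells searched for a cell far from the rest, 0 had one, where chance gives about 1 in 20. How these sets were picked is not stated here, and single cells did stand apart. In E/MB Blimp1+ Hoxb1+ cells, replicate 2 was at 8.64 for Hoxa9 and 9.92 for Hoxb6, with the other cells at the floor. Its Hoxa10 was 9.85, against at most 6.65 in the others.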

How the results depend on the processing

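No paired analysis was possible because replicate numbers only count cells within a group and no test was made. Of 54 single-gene differences of at least 1 log2 unit, 0 reversed in 1261 alternatives and 65 values moved by 1 SD or more. The cause of each change below was not tested.

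The counts below are of members past the size, with E/MB unless a stage is named. Without the floor, which leaves differences among values under background, they were 3 (E/MS precursors and epiblast), 4 (LS/0B and E/MS precursors), 5 (PGCs and LS/0B precursors), 5 (EHF and E/MB PGCs), 9 (E8.25 and EHF PGCs), 9 (E8.25 PGCs and epiblast), 4 (Blimp1 (-/-) cells and precursors at LS/0B), 13 (Blimp1 (-/-) cells and PGCs), 11 (Blimp1 (-/-) cells, both stages), 7 (Blimp1 (-/-) cells and mesoderm), 12 (Blimp1 (-/-) and Blimp1+ Hoxb1+ cells), 12 (PGCs and mesoderm), 13 (PGCs and Blimp1+ Hoxb1+ cells), 20 (the same at EHF), 9 (Blimp1+ Hoxb1+ cells and mesoderm), 14 (Blimp1+ Hoxb1+ cells, both stages) and 10 (mesoderm and epiblast). With the floor at the 99th percentile of background they were 0 between precursor stages, between PGCs and LS/0B precursors, between E8.25 PGCs and epiblast, between stages of Blimp1 (-/-) and of Blimp1+ Hoxb1+ cells, and between Blimp1 (-/-) cells and mesoderm or Blimp1+ Hoxb1+ cells. They were then 2 for Blimp1 (-/-) cells and PGCs, 2 for PGCs and Blimp1+ Hoxb1+ cells, 4 for the same at EHF, 1 for Blimp1+ Hoxb1+ cells and mesoderm, and 2 for mesoderm and epiblast. At a size of 2 log2 units they were 3 (Blimp1 (-/-) cells and PGCs), 7 (EHF), 2 (PGCs and Blimp1+ Hoxb1+ cells), 1 (PGCs and LS/0B precursors) and 1 (stages of Blimp1 (-/-) cells). They were 0 in 6 others that had members at 1 log2 unit. Hoxb1, Hoxb2 and Hoxd9 passed 2 log2 units both for PGCs and mesoderm and for mesoderm and epiblast.

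Averaging all probe sets gave 1 for Blimp1 (-/-) against Blimp1+ Hoxb1+ cells and 4 between stages of the latter. Against mesoderm, quantile normalization gave 3 for Blimp1 (-/-) cells and 5 for PGCs. Scaling to the lys controls, which moved the median gene by -0.57 to 0.79 (log2), gave 5 for PGCs and 6 for Blimp1+ Hoxb1+ cells against mesoderm and 5 for Blimp1 (-/-) against Blimp1+ Hoxb1+ cells. Without cells with Xist there were 1 (E8.25 and EHF PGCs), 4 (Blimp1 (-/-) and Blimp1+ Hoxb1+ cells), 7 (PGCs and Blimp1+ Hoxb1+ cells) and 1 (Blimp1+ Hoxb1+ cells and mesoderm), and EHF PGCs had 5 genes per cell.

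Leaving out 1 cell gave 1 to 2 between precursor stages and for PGCs against LS/0B precursors, 0 to 1 for E8.25 PGCs and epiblast, 0 to 2 for Blimp1 (-/-) cells and mesoderm, 2 to 4 for Blimp1 (-/-) and Blimp1+ Hoxb1+ cells, 2 to 7 for PGCs and Blimp1+ Hoxb1+ cells, 1 to 3 for Blimp1+ Hoxb1+ cells and mesoderm, and 6 in every case for Blimp1 (-/-) cells and PGCs. Between stages it gave 4 to 6 for Blimp1 (-/-) cells and 6 to 10 for Blimp1+ Hoxb1+ cells. It gave 10 to 12 for EHF PGCs and EHF Blimp1+ Hoxb1+ cells, and 3 to 4 for mesoderm against PGCs and against epiblast.

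Genes detected per cell, of all 33, were at the 90th and 99th percentile limits 5.38 and 0.875 in epiblast, 6 and 0.714 in E/MS and 6.53 and 1.88 in LS/0B precursors, 6.13 and 1 in E/MB and 5.63 and 0.5 in EHF PGCs, 7.85 and 1.65 in LS/0B and 11.8 and 4.58 in E/MB Blimp1 (-/-) cells, 17.8 and 7 in EHF Blimp1+ Hoxb1+ cells and 10.7 and 4.5 in mesoderm, and 1.5 at the latter in E8.25 PGCs. Without the 3 genes common in epiblast, a choice made after seeing the data, they were 1 in epiblast, 1.29 and 2.06 in precursors, 1.13, 1.25 and 2.38 in PGCs and 5.8 in mesoderm. Signals under background limit what can be read of low Hox genes.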
